A study of Mus musculus with 6 samples.

Results

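The secretory pathway and ER stress genes described here are a fixed list of 10 mouse genes: Hspa5, Hsp90b1, Calr, Pdia3, Txndc5, Sec61a1, Xbp1, Atf4, Ddit3 and Creb3l1. A probe was counted as a member when its RefSeq accession mapped to one of the listed genes, a rule that uses no measured value, although the list itself was drawn up with earlier results of these data known. Of the 10 genes, 9 had a probe, and they had 14 probes of the 41174 gene probes on the array, which named 17178 genes in all. Hspa5, Xbp1, Atf4, Ddit3 and Creb3l1 had 1 probe each, Hsp90b1, Txndc5 and Calr had 2 each, and Sec61a1 had 3. Pdia3 was not analysed here, because no accession on the array mapped to it.

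Proteins that leave a cell, or sit in its membranes, are threaded into the endoplasmic reticulum (ER) as they are made. Chaperones fold them there, disulfide enzymes join their cysteines, and coated vesicles carry them to the Golgi. When unfolded protein builds up, sensors in the ER membrane start the unfolded protein response, in which XBP1, ATF6 and ATF4 switch on genes for chaperones, degradation and, when stress persists, cell death. In a tooth germ the main secretors are ameloblasts, which export enamel proteins, and odontoblasts, which export collagen and dentin proteins.

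The samples were lower first molar germs of 129/Sv mice at postnatal day 0, all labelled male. The first group was labelled wild type and the second Perp-null, each with 3 samples called biological replicates. Perp-null mice lack Perp, a membrane protein of desmosomes that is also a target of p53 and p63. RNA was taken from isolated tooth germs, which hold epithelium and mesenchyme, and the labels name no Cre or driving promoter and do not say how many germs or animals were in a sample. In such bulk samples fewer cells of a type and less RNA per cell cannot be told apart. Each sample was hybridised to a 1-colour array, and 2 sets of values were deposited. The scanner files, 1 per sample, hold the spot intensities, used here as log2 of the processed signal minus the array's 75th percentile. The value table holds the authors' log2 values with 1 column per sample. Samples are called WT1 to WT3 and PN1 to PN3 after their labelled genotype and replicate number.

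The labels of the scanner files and of the value table columns did not go together, and this touches every result below. In the scanner files the Perp probe read 5.96, -5.06 and 5.91 in WT1, WT2 and WT3, and 5.87, -6.81 and 5.97 in PN1, PN2 and PN3, so that the files labelled WT2, PN1 and PN3 went against their label. In the value table the same probe read 17.01, 16.95 and 16.98 in the wild-type columns and 7.51, 8.24 and 7.26 in the Perp-null columns, which follows the labels (log2 fold change -9.31 ± 0.24, limma adjusted p = 8.15e-06). Each column was set against each file by the rank of the raw signal over all 41174 gene probes. A matched pair had a Spearman correlation that rounds to 1.00, and no other pair was above 0.988. The WT1 column held the data of the WT1 file, the WT2 column those of the WT3 file, the WT3 column those of the PN1 file, the PN1 column those of the WT2 file and the PN3 column those of the PN2 file. The PN2 column matched no file and the PN3 file no column, so 1 of the 5 matched columns carried the label of its file. Xist and 3 Y-linked genes went against the male label in the files WT2, PN1 and PN2 and in the columns WT3, PN1 and PN3. A fit without those files keeps WT1, WT3 and PN3, which all read high for Perp, with PN3 as the only Perp-null file. A fit without those columns keeps PN2 as the only Perp-null column. No file was given another group, and every member is described in both sources as the libraries labelled wild type and Perp-null, with the labels as they stand. The 2 sources share the data of 5 arrays, so they are not independent measurements.

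**Figure D1:**
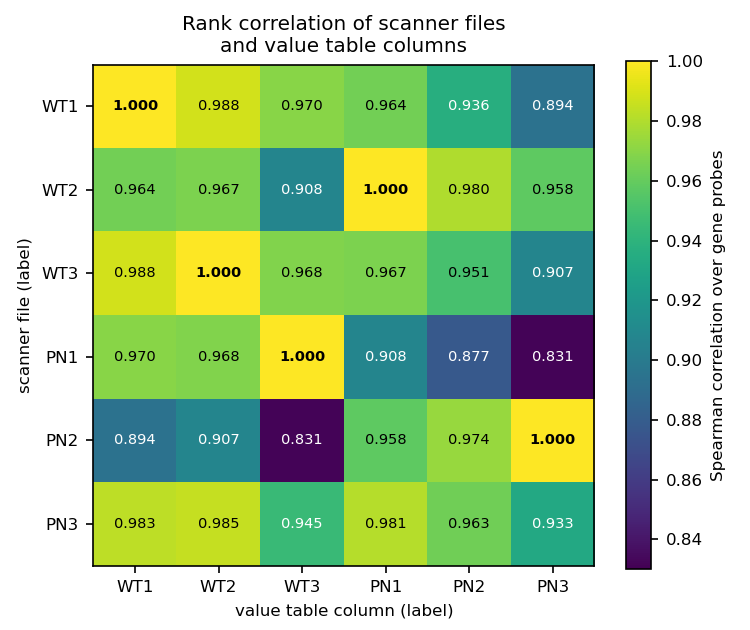
Spearman correlation across 41174 gene probes between the raw median signal of each scanner file (rows, by label) and each value table column (columns, by label). The 5 cells at 1.000 are the matched pairs, and 4 of them lie off the diagonal.

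All 14 member probes were well above background on all 6 arrays, with no outlier flag and no saturated spot. Per array, 72.8% to 82.3% of gene probes passed the scanner software's background test. Negative control spots had a median raw signal between 32 and 127. Of the 5 matched columns, the Perp-null columns PN1 and PN3 came from the 2 arrays with the dimmest negative controls (37.5 and 32), and the wild-type columns from arrays at 90, 80 and 127. Among the scanner files the labelled group coincided with the slide and the scan, so these cannot be told apart. Markers of the tissue were present: all 14 ameloblast and enamel markers and all 15 odontoblast and bone markers that had a probe passed the filter on dim probes. Markers of neighbouring tissues passed it as well, among them all 11 of skeletal muscle.

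The comparison asks whether the secretory machinery of the newborn molar differs without Perp. The file fit cannot answer this, because the labels did not separate the Perp signal there (log2 fold change -0.59 ± 4.33). Perp was low in WT2 and PN2 and high in the other files, so the file counts describe the labels only. None of the 9 measured genes passed the test in either source. In the scanner files, limma called 0 of 26677 features (0%) at an adjusted p under 0.05, with 630 (2.36%) under 0.05 before adjustment, and 0 of the 9 genes on either count. With the replicate number as a block the count over all features was 1 and that of the 9 genes was 0. In the value table, limma called 6269 of 26677 features (23.5%), of which 3964 (14.9%) were lower and 2305 (8.64%) higher in the columns labelled Perp-null. That count rests on the fit: it was 1 when replicate number was a block, 1 with slide as a block over the 5 matched columns and 1 without PN2, so 23.5% is the share of this fit alone. Each of those fits estimated more terms or used fewer columns, and the part of this in the smaller count was not tested. In the main table fit again 0 of the 9 genes passed, with 35.8% of all features under 0.05 before adjustment and 0 of the 9. The adjusted p of the 9 genes was 1.00 throughout in the scanner files and lay between 0.481 and 0.962 in the value table.

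The count of 0 in the value table has to be read against the signal of the genes. Features were divided into 4 equal classes by mean signal, and limma called 45.9% of the dimmest class, 44.4% of the next, 3.27% of the third and 0.39% of the brightest. Hspa5, Hsp90b1, Calr, Txndc5, Sec61a1, Xbp1 and Atf4 lay in the brightest class and Ddit3 and Creb3l1 in the third. A count of 0 of 9 is therefore near the share of features called at this signal. The matched Perp-null columns came from the arrays with the dimmest negative controls, and the part of this in the calls was not tested.

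**Figure D2:**
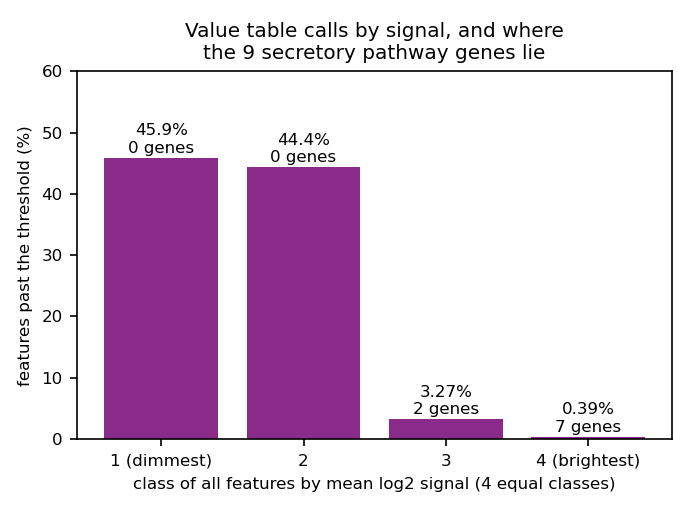
Share of features past an adjusted p of 0.05 in the value table (vertical axis, percent) by class of mean log2 signal (horizontal axis, dimmest to brightest), with the number of the 9 genes in each class. The 2 dimmer classes had 45.9% and 44.4% called and none of the 9 genes, and the brightest class had 0.39% called and 7 of the genes.

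Hspa5, Hsp90b1 and Calr are the main chaperones of the ER lumen. Hspa5 (BiP) binds unfolded chains and holds the stress sensors inactive. Its scanner values were 5.15, 5.24 and 5.50 in WT1 to WT3 and 5.10, 5.34 and 5.35 in PN1 to PN3. In the value table it read 16.13, 16.48 and 16.26 against 15.97, 16.31 and 16.16. The groups overlapped in both sources, and all 6 values lay within a 1.32-fold range in the files and a 1.42-fold range in the table. The log2 fold change, labelled Perp-null minus wild type, was -0.03 ± 0.15 (SE, n = 3 per group; limma adjusted p = 1.00) in the files and -0.14 ± 0.13 (limma adjusted p = 0.498) in the table. The 95% interval of the table value ran from 0.738-fold to 1.11-fold, so a doubling or a halving lay outside it.

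Hsp90b1 (GRP94) is the ER form of HSP90 and folds a narrower set of clients, integrins and Toll-like receptors among them. The brighter probe gave 5.08, 5.24 and 5.39 in the wild-type files and 5.05, 5.28 and 5.24 in the Perp-null files. In the table it gave 16.06, 16.38 and 16.17 against 16.02, 16.33 and 16.21. No column or file stood apart, and the fold change was -0.04 ± 0.14 in the files and -0.02 ± 0.12 in the table. The dimmer Hsp90b1 probe gave 0.13 ± 0.20 and -0.18 ± 0.23, with overlapping groups in both.

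Calr (calreticulin) is a lectin chaperone that holds freshly glycosylated proteins and calcium. Its brighter probe read 5.09, 5.12 and 5.41 in the wild-type files and 5.14, 5.10 and 5.32 in the Perp-null files, the narrowest range of the 9 genes there (0.32 log2 units). The table values were 16.11, 16.41 and 16.30 against 16.00, 16.12 and 16.37, again overlapping, with a fold change of -0.11 ± 0.13 after -0.02 ± 0.14 in the files. In the files the dimmer Calr probe, at -0.05 ± 0.17, lay close to the brighter one. In the table it read 12.89, 13.09 and 13.16 against 12.55, 12.88 and 12.64, so that every Perp-null column lay below every wild-type column. Its fold change of -0.36 ± 0.15 had an unadjusted p of 0.0394, the only one of the 14 probes under 0.05, and did not pass after adjustment (limma adjusted p = 0.117). Of all 33736 probes 36% had an unadjusted p under 0.05 in the table, and 43.6% had no overlap between the groups.

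These 3 chaperones varied little and differed little from one another. After each gene's 6-array mean was subtracted, Hspa5 and Hsp90b1 differed by a root mean square of 0.04 log2 units over the 6 files and 0.06 over the 6 columns, the smallest of the 36 pairs in both. The pair Hspa5 and Calr came at 0.09 and 0.12, and Hsp90b1 and Calr at 0.10 and 0.12, which gave them ranks 2 and 3 of the 36 pairs in the files and ranks 4 and 3 in the table. In the files all 3 were lowest in PN1 or WT1 and highest in WT3, and in the table all 3 were lowest in PN1 and highest in WT2, which holds the data of the WT3 file. By Pearson correlation Hspa5 and Hsp90b1 were at 0.96 in the files and 0.92 in the table, and Hspa5 and Calr at 0.77 and 0.69. Hsp90b1 and Calr were at 0.66 and 0.64, below Xbp1 and Sec61a1 in the files (0.82) and Creb3l1 and Txndc5 in the table (0.87). All this is a description over 6 arrays, and genes outside the list had smaller differences still. Over the 6 files Ints11 lay at 0.04 from Hspa5 and at 0.03 from Hsp90b1, and Gfm2 at 0.0049 from Calr. The nearest gene of the other members was Zmpste24 for Xbp1 (0.06), Hyal2 for Atf4 (0.04), Trip4 for Ddit3 (0.05), Nudt8 for Creb3l1 (0.08), Klhl13 for Txndc5 (0.10) and Nkap for Sec61a1 (0.03), among 15582 named genes.

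The promoters of the same 3 genes are shown because they share the ER stress element, the sequence through which ATF6 and XBP1, with NF-Y, raise chaperone genes. The element searched was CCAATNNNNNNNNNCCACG on both strands, in the 250 bases before and 50 after each gene start, with promoters from RefSeq, build GRCm38.p6. Only exact matches were counted, so near matches were left out. The element was found in 39 of 32851 promoters (0.119%). Of the 10 listed genes, 8 had a promoter in the table, and 3 of these held the element: Hspa5 and Calr once, Hsp90b1 on both strands. The stretches run 5′ to 3′ on the gene's strand and the capitals mark the element, which lies 65 to 47 bases before the start in Hspa5, 212 to 194 and 107 to 89 in Hsp90b1, and 162 to 144 in Calr. The second Hsp90b1 element and that of Calr are on the opposite strand and so read CGTGG first and ATTGG last.
Hspa5, chr2:34771975-34772089, plus strand: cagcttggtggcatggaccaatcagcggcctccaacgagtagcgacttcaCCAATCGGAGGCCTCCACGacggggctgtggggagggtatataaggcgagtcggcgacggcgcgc
Hsp90b1, chr10:86705483-86705694, minus strand: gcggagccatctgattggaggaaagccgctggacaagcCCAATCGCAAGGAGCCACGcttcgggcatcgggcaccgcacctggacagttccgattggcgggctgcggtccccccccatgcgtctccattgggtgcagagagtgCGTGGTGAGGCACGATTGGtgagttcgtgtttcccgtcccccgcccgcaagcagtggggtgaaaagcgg
Calr, chr8:84847025-84847143, minus strand: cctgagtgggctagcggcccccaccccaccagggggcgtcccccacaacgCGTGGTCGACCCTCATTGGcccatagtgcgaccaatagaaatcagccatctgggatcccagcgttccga

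Other motifs were searched in the same windows and on both strands. The second form of the stress element, known as ERSE-II, occurred in 0.0365% of promoters and in none of the listed genes with a promoter. TGACGTG, the core of the element bound by XBP1, occurred in 2.01% of promoters and, among the listed genes, in Hspa5 and in 1 of the 3 promoters of Txndc5. TGATGNAA, part of the element bound by ATF4 with a C/EBP partner, occurred in 3.97% of promoters and in another of the Txndc5 promoters. In Xbp1, Atf4, Ddit3 and Pdia3 none of these letters was in the window. Over the wider lists of secretory pathway genes described further on, 10 genes held the first element, 8 of the 24 chaperones and disulfide enzymes with a promoter (33.3%) and 2 of the 19 degradation genes, Syvn1 and Derl3. Beside Hspa5, Hsp90b1 and Calr, the chaperone genes were Canx, Pdia6, Dnajc3, Creld2 and Ero1b. None of the 10 passed the test in the value table, where 9 were lower with a median log2 fold change of -0.13. In the files 6 were lower with a median of -0.02.

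Txndc5 is a disulfide isomerase of the ER with several thioredoxin domains, and it varied more than the chaperones. The brighter probe read 2.42, 2.68 and 2.80 in the wild-type files and 2.12, 2.30 and 3.07 in the Perp-null files. The PN3 file was the highest of all 6 and PN1 the lowest, so the files labelled Perp-null spanned the whole range of 0.95 log2 units, a 1.93-fold range and the widest of the 9 genes. Both PN1 and PN3 read high for Perp. In the table the brighter Txndc5 probe read 13.35, 13.75 and 13.26 against 13.50, 13.60 and 13.21, with overlapping groups. The fold change was -0.14 ± 0.26 in the files and -0.02 ± 0.17 in the table. The file value ran from -0.43 without PN3 to 0.47 with array weights, and passed in neither. It was 0.46 without the 3 files against the male label, where every file left read high for Perp. The dimmer Txndc5 probe gave 9.94, 9.67 and 9.97 against 9.64, 9.33 and 9.15 in the table. Every Perp-null column lay below every wild-type column there, while 43.6% of all probes lacked overlap in either direction. The fold change of this dimmer probe was -0.49 ± 0.23 (limma adjusted p = 0.178). In the files that probe gave -0.07 ± 0.51, over a 3.78-fold range.

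Sec61a1 is the pore-forming subunit of the channel through which chains enter the ER. The brightest of its 3 probes read 4.73, 4.79 and 4.66 in the wild-type files and 4.66, 4.47 and 4.89 in the Perp-null files. In the table it read 15.71, 15.63 and 15.83 against 15.71, 15.38 and 15.74. The groups overlapped in both, with PN2 lowest each time, although the PN2 column and the PN2 file hold different arrays. The fold change was -0.06 ± 0.14 in the files and -0.11 ± 0.12 in the table, where the 95% interval ran from 0.758-fold to 1.13-fold. The other probes of Sec61a1 gave -0.35 ± 0.25 and 0.22 ± 0.44 in the files and -0.34 ± 0.19 and -0.50 ± 0.26 in the table. The dimmest of them read 9.74, 9.44 and 9.98 against 9.40, 8.91 and 9.36 in the table, so those groups did not overlap. Of all probes 43.6% had no overlap there.

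Xbp1 encodes the transcription factor whose mRNA is spliced by the sensor IRE1, and it is needed for large-scale secretion in plasma cells and exocrine glands. A probe signal does not tell the spliced from the unspliced form. In the files Xbp1 read 3.01, 2.99 and 2.67 in WT1 to WT3 and 2.17, 2.18 and 2.99 in PN1 to PN3. The files PN1 and PN2 were the lowest and PN3 lay among the wild-type files, so the groups overlapped. The fold change of -0.44 ± 0.25 (n = 3 per group, limma adjusted p = 1.00), 1.36-fold lower, was the largest of the 9 genes in the files, with a 95% interval from 0.489-fold to 1.11-fold. In the table Xbp1 read 13.97, 13.62 and 13.31 against 13.95, 13.38 and 13.18, which interleaved, and the fold change was -0.13 ± 0.24 (limma adjusted p = 0.765). The fold change in the files was 0.11 with array weights. It was 0.16 without the 3 files that went against the male label, where every file left read high for Perp. Without the 3 files whose Perp signal went against the label it was -0.66. Both fits without 3 files left 1 Perp-null file, which is assumed to vary like the others.

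The values of Xbp1 and of several of the pathway lists described further on varied alike across the samples. Centred on its mean, Xbp1 was at 0.34, 0.33, 0.00, -0.50, -0.49 and 0.32 in the files WT1 to PN3, and the median of the 19 measured collagen-folding genes was at 0.30, 0.18, 0.05, -0.43, -0.54 and 0.34. In the table the 6 columns fell in the same order for Xbp1 and for that median, from WT1 (0.40 and 0.33) and PN1 (0.38 and 0.24) down to PN3 (-0.39 and -0.34). The order was not particular to collagen folding: the medians of ER import and glycosylation (0.12 in WT1 to -0.11 in PN3) and of COPII and COPI transport (0.175 to -0.145) had it too, over narrower ranges, and both were lowest in PN1 and PN2 in the files. Markers of the secreting cells varied across the same samples. The summed signal of the 15 odontoblast and bone markers ranged from 7.79 to 8.18 (log2) in the wild-type files and from 7.03 to 8.06 in the Perp-null files, lowest in PN1 and PN2. The summed signal of the 14 ameloblast and enamel markers ranged from 7.82 to 8.59 and from 7.65 to 8.36. In the table these sums ranged from 18.32 to 18.95 against 18.07 to 18.99 for odontoblast and bone, and from 18.85 to 19.41 against 18.19 to 19.42 for ameloblast and enamel. No measured marker of either list was left out as too dim, and the part of cell composition in the Xbp1 values was not tested.

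Atf4 encodes the factor translated when PERK or another kinase phosphorylates eIF2α, and much of its control is at translation, which arrays do not measure. Its values were 1.87, 1.82 and 1.66 in the wild-type files and 1.58, 1.70 and 1.49 in the Perp-null files. Only the WT3 file lay below the highest Perp-null file, and the fold change was -0.20 ± 0.12 (limma adjusted p = 1.00). The table gave 12.71, 12.59 and 12.58 against 12.71, 12.81 and 12.45, with a fold change of 0.03 ± 0.14 (limma adjusted p = 0.917). Atf4 was the only one of the 9 genes with a fold change above 0 in the table.

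Ddit3 encodes CHOP, the factor downstream of ATF4 that is tied to cell death under lasting stress. It read -0.37, -0.76 and -0.33 in the wild-type files and -0.12, -0.98 and -0.57 in the Perp-null files, with the highest and the lowest value both under the Perp-null label. In the table it read 10.53, 10.66 and 10.57 against 10.46, 10.49 and 10.11, and every Perp-null column lay below every wild-type column. It was the only one of the 9 genes without overlap there, and 43.2% of all features did not overlap in the table (24.9% in its class of signal and 7.57% in the brightest class). The Perp-null mean was 10.35 ± 0.21 (SD, n = 3) against 10.59 ± 0.07, the gap between the nearest columns was smaller than the spread within the Perp-null group, and the fold change of -0.23 ± 0.20 did not pass (limma adjusted p = 0.481). The fold change in the files was -0.07 ± 0.27, and no member lacked overlap there, where 7.04% of features did.

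Creb3l1 encodes OASIS, a membrane-bound factor released by proteolysis that is required for type I collagen secretion in mouse osteoblasts. It read -1.08, -1.40 and -0.69 in the wild-type files and -0.86, -1.38 and -0.79 in the Perp-null files, interleaved throughout. The table gave 9.89, 10.35 and 9.84 against 9.76, 10.10 and 9.65, also overlapping. The fold change was 0.05 ± 0.28 in the files, the only one above 0 there, and -0.19 ± 0.25 in the table. Its interval in the table, from 0.587-fold to 1.31-fold, was the widest of the 9 genes.

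**Figure D3:**
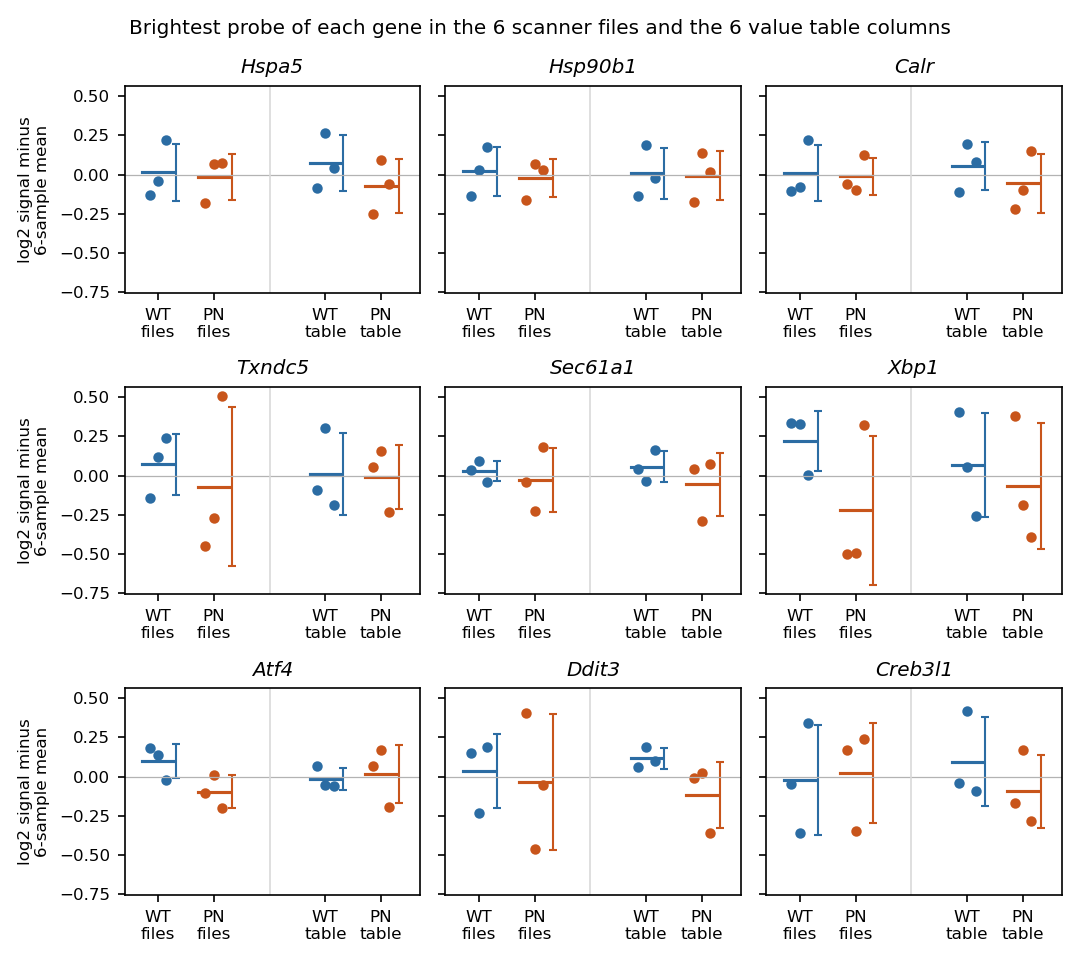
Log2 signal of the brightest probe of each of the 9 genes, minus its 6-sample mean (vertical axis), for the libraries labelled wild type (blue) and Perp-null (orange) in the scanner files (left) and in the value table (right). Points are samples in label order, horizontal bars are group means and vertical bars are 1 SD (n = 3). The groups overlap in every panel except Ddit3 in the value table, and Xbp1 and Txndc5 have the widest Perp-null spread in the files.

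Seen over the list, 8 of the 9 genes were lower under the Perp-null label in each source, with a median log2 fold change of -0.06 in the files and -0.11 in the table. Over all 26677 features, 61.0% were lower in the files with a median of -0.08, and 48.7% were lower in the table with a median of 0.01. The exceptions differed, Creb3l1 in the files and Atf4 in the table. The direction in the files depended on the processing: 2 of the 9 were lower with array weights (median 0.11) and 4 without WT3 (median 0.01). All 9 were lower with median scaling, without WT2 or without PN3. Without the 3 files whose Perp signal went against the label, 7 were lower (median -0.22). With quantile normalization, with normexp, without PN1 or without PN2, 5 were lower. Without the 3 arrays against the male label 2 were lower (median 0.07), but every file left there read high for Perp. Without the 3 columns against the male label, 5 of the 9 were lower in the table (median -0.02). The 95% intervals of the 9 genes reached from -1.03 to 0.72 log2 units in the files and from -0.77 to 0.41 in the table. Of the 14 probes, 0 were called in the table against 23.1% of all probes, and 4 did not overlap against 43.6% of all probes, namely those of Ddit3 and the dimmer or dimmest ones of Calr, Txndc5 and Sec61a1. All 4 were lower under the Perp-null label. Both shares were smaller among bright features. In the third class of signal 3.27% were called and 24.9% did not overlap, and in the brightest class 0.39% and 7.57%.

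**Figure D4:**
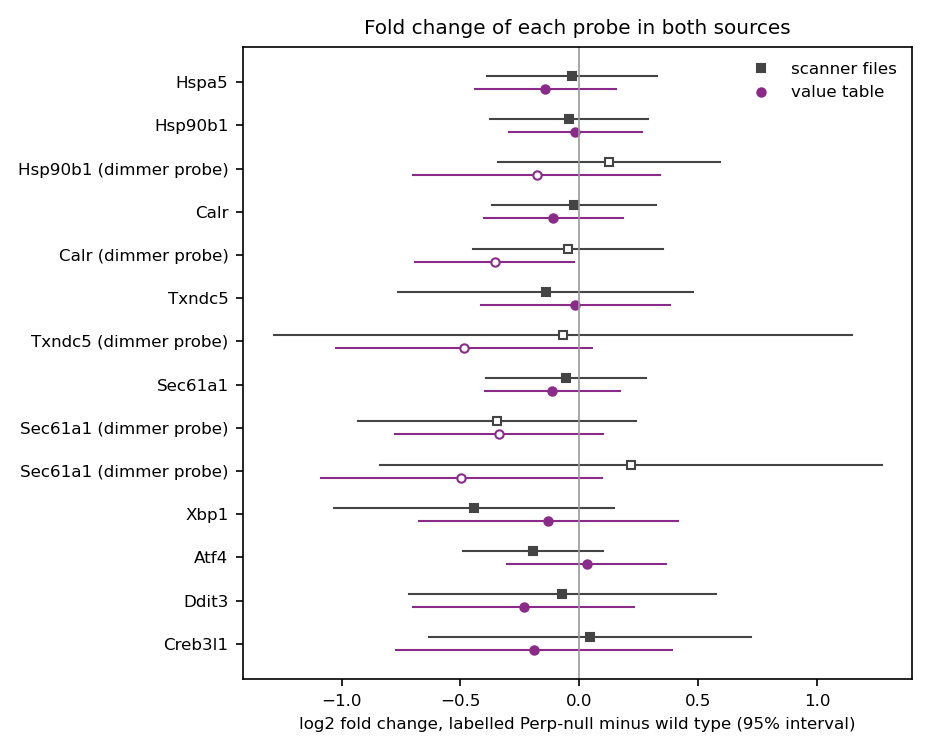
Log2 fold change of each of the 14 probes with its 95% interval (horizontal axis; labelled Perp-null minus wild type), from the scanner files (grey squares) and the value table (purple circles); open symbols are the dimmer probes of a gene. Every interval includes 0 except that of the dimmer Calr probe in the value table, and the dimmer probes have the wider intervals in the files.

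Within slides the value table gave small differences of both signs. On the first slide the PN1 column was set against WT1 and WT2, and on the second PN3 against WT3. Hspa5 was at -0.34 and -0.10 on these slides, Creb3l1 at -0.36 and -0.19, and Ddit3 at -0.14 and -0.46. Xbp1 was at 0.16 and -0.13, Calr at -0.26 and 0.07 and Hsp90b1 at -0.20 and 0.04. Perp itself was at -9.47 and -9.72. With 1 Perp-null column per slide these are values with no test, and the slide of the PN2 column was not known.

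The wider secretory pathway was read from 7 lists, which held 176 measured genes beside the 9 (the counts per list further on include the 9). In the files 141 of the 176 were lower and 35 higher under the Perp-null label, with 0 called and a median of -0.18. The count of lower genes was 43 with array weights and 46 without the 3 arrays that went against the male label, so the direction in the files turned with these choices. The only Perp-null file left in the second was PN3, which read high for Perp. Of other choices, median scaling gave 157 lower genes, quantile normalization 122 and normexp 125. Without the 3 files whose Perp signal went against the label, 125 were lower and 50 higher. Of the same 176 genes 124 were lower and 52 higher in the table, with a median of -0.08 and 5 called (2.84%, against 23.5% of all features). Over all features 61.0% were lower in the files and 48.7% in the table. The share of all features depended on signal, at 45.9%, 44.4%, 3.27% and 0.39% from the dimmest class to the brightest. The 2.84% is therefore not read as few calls.

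Of the 5 genes called in the table, 4 were lower under the Perp-null label, and the calls depended on the fit. None of the 5 passed when replicate number was a block (limma adjusted p from 0.0538 to 0.0691) or in the fit blocked on slide. The same held on probes well above background on all 6 files, and without WT1, PN2 or PN3, while 1 passed without WT3. Only 3 of the 5 lay among the brighter features, and none passed there (limma adjusted p from 0.616 to 0.684). Mbtps2 and Slc7a11 lay in the dimmer classes, where 45.9% and 44.4% of features were called. Each of the 5 kept its direction under every alternative that tested it, 12 or 13 per gene. Atf6, the sensor that is cut in the Golgi to free a transcription factor, read 11.58, 11.22 and 11.86 in the wild-type columns and 10.87, 10.82 and 10.60 in the Perp-null columns, a fold change of -0.79 ± 0.21 (limma adjusted p = 0.0329). Mbtps2, the site-2 protease that completes that cut, was at -1.16 (limma adjusted p = 0.0349), and Ppp1r15a (GADD34), which brings a phosphatase to eIF2α, at -1.18 (limma adjusted p = 0.0356). Lman1, a cargo receptor between ER and Golgi, read 14.87, 14.83 and 14.59 against 14.43, 14.31 and 14.39, a fold change of -0.39 ± 0.11 (limma adjusted p = 0.0442). Slc7a11, the cystine transporter that ATF4 induces, was higher, with 8.31, 8.33 and 7.51 against 9.06, 9.47 and 9.17, a fold change of 1.18 ± 0.31 (limma adjusted p = 0.0303). Mbtps2 and Ppp1r15a were outside the rule for named genes and were chosen after their values were seen, to complete the 5. In the files the 5 genes were not called, with Atf6 at 0.04 ± 0.23, Lman1 at -0.04 ± 0.21 and Slc7a11 at 0.04 ± 0.34.

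List by list, the medians in the table were small. The call counts are set beside 23.5% of all features, 3.27% of the third class of signal and 0.39% of the brightest. In the table ER import and glycosylation had 26 of 32 genes lower, 0 called and a median of -0.11, and among its bright members Rpn1, an oligosaccharyltransferase subunit, was at -0.23 ± 0.21 and Sec61b, a partner of Sec61a1, at -0.11 ± 0.09. The chaperones and disulfide enzymes had 24 of 26 lower, 0 called and a median of -0.13, with Pdia6, a disulfide isomerase, at -0.15 ± 0.11 and Ppib, the ER cyclophilin, at -0.05 ± 0.10. COPII and COPI transport had 28 of 37 lower, 1 called (2.7%) and a median of -0.09. Sensors and transcription factors had 13 of 18 lower, 2 called (11.1%) and a median of -0.12.

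Genes downstream of the stress response were divided in both directions in the table. ATF4 and CHOP targets had 16 lower and 13 higher of 29 in the table, 1 called each way (6.9%) and a median of 0.00. Among them Atf5 was at -0.04 ± 0.12, Ddit4 at -0.09 ± 0.20 and Phgdh, the first enzyme of serine synthesis, at 0.05 ± 0.18. The summed signal of the 29 targets was 18.36 to 18.47 (log2) in the wild-type columns and 18.35 to 18.44 in the Perp-null columns. ER-associated degradation had 12 lower and 12 higher of 24, 0 called, with Vcp, the ATPase that extracts its substrates, at 0.20 ± 0.14 and Syvn1, its ubiquitin ligase, at -0.09 ± 0.21. In the files more of them were lower, 18 of 29 targets (median -0.03) and 20 of 24 degradation genes (median -0.20), with 0 called in either list.

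Collagen folding had the lowest median of the 7 lists in the files, -0.35 with 18 of 19 genes lower, and -0.08 with 13 of 19 lower in the table, with 0 called in both. Sparc, a collagen-binding matrix protein, was at -0.67 ± 0.33 in the files and -0.07 ± 0.28 in the table. Pcolce, which aids procollagen cleavage, was at -0.88 ± 0.43 in the files and 0.13 ± 0.39 in the table. Markers of connective tissue also differed between the sources. All 15 dental mesenchyme and fibroblast markers were lower in the files, with 0 called and sums of 7.33 to 7.66 against 6.04 to 7.16, while 4 were lower and 11 higher in the table, with sums of 17.18 to 18.43 against 17.71 to 18.41. Their part in the collagen-folding values was not tested.

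**Figure D5:**
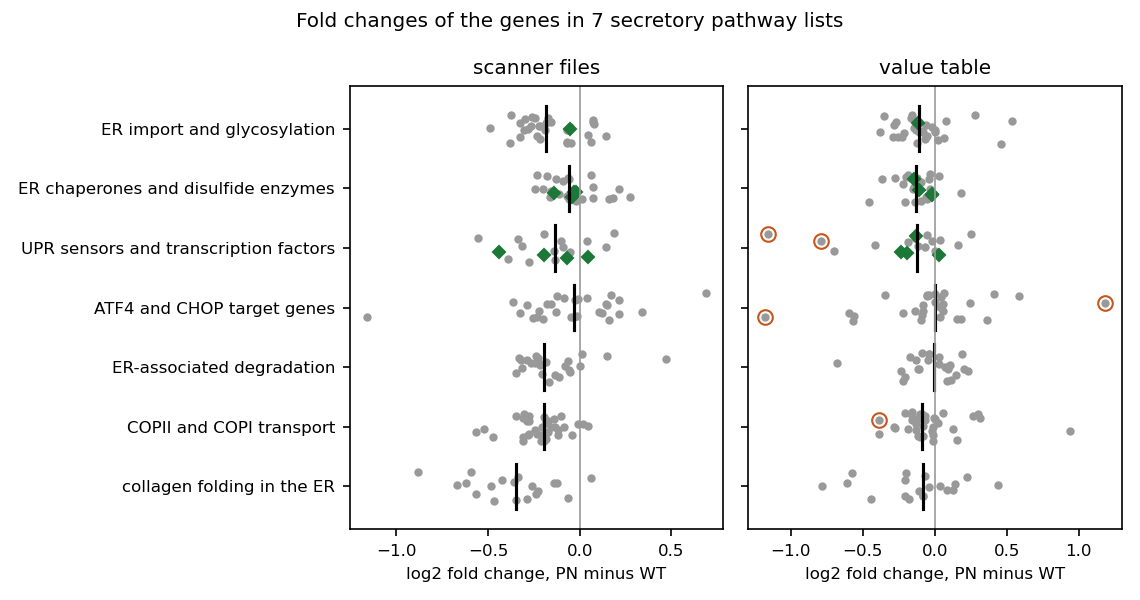
Log2 fold change (horizontal axis; labelled Perp-null minus wild type) of every measured gene in the 7 lists (rows), in the scanner files (left) and the value table (right). Green diamonds are the 9 genes, black bars are list medians and orange rings mark genes called by limma, which number 0 in the files and 5 in the table.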

How the data were processed

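Total RNA of 6 lower first molar samples was labelled with Cy3 and hybridised to 1-colour Agilent arrays, per the labels' protocols. The scanner files deposited by the authors hold spot intensity on a linear scale, background-subtracted with Agilent Feature Extraction (10.5.1.1 per the file headers, 10.3 per the submitters' processing notes). The deposited value table holds log2 values, with nearly equal quantiles in all columns (medians 8.36 to 8.39, as quantile normalization leaves them) and ranks following the raw signal. Its normalization is not given in the sources used here, and its offset stays unknown.

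Log2 processed signals minus each array's 75th percentile were used as the main values, without 1417 control spots per array and outlier-flagged spots. A probe was kept if it was well above background on 3 arrays or more (33736 probes), with the brightest probe per gene: 15582 genes and 11095 unnamed probes. Genes were named by accession from the RefSeq table of GRCm38.p6, while the array design names mm9. Groups were compared with limma 3.58.1 (R 4.3.3; lmFit, eBayes with trend), Benjamini-Hochberg adjusted over all features at 0.05, and the code was tested on simulated data. The value table was fitted beside the files, on the same features. Other alternatives were other normalizations, filters, variance models, array weights, the replicate block and left-out arrays. Normexp (offset 50) used the median signal.

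Replicate numbers were checked for pairing: deviations correlated at 0.843, 0.876 and 0.193 in the files, all above 0.1. In the files the number coincides with the slide position, so paired samples cannot be told from position. In the table it does not: the WT2 column holds an array from position 3 and the PN1 column 1 from position 2. The main fits had no block, and the replicate block was an alternative only. In the table the correlations were 0.408, 0.393 and -0.02, not all above 0.1. The labels name biological replicates without giving animals, so the p-values cover the spread from sample to sample, which may be technical, and the number of arrays limits the precision. Named genes were the members with every probe, per list the 3 brightest and the 1 with the smallest p, and each member's 3 nearest profiles; some were left out by list. The members and lists were chosen with earlier results of these data known.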

Additional observations from a re-analysis of the deposited data

How the results depend on the processing

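Among the 9, the count of called genes was 0 under all 18 alternatives to the scanner file fit. It was also 0 under all 13 to the value table fit. Where few or no features were called at all, as in most of the file alternatives, a count of 0 of the 9 says little. No fold change of the 9 reversed with both intervals apart from 0. The main interval of each gene included 0 in both sources, so such a reversal could not occur. The sign of a fold change near 0 did turn: Hsp90b1 and Creb3l1 under 8 of the 18 alternatives, Hspa5 and Calr under 7, Sec61a1 under 5, Txndc5 under 3 (from -0.43 to 0.47), Xbp1 (from -0.72 to 0.16) and Ddit3 under 2 and Atf4 under 1, while Calr, Creb3l1 and Ddit3 kept theirs under all 13 in the table. The median over the 9 was -0.22 without the 3 files whose Perp signal went against the label, 0.11 with array weights, 0.07 without the 3 files against the male label, and from -0.12 to 0.01 with 1 file left out.

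The count over all features moved far more. From 0 in the files it went to 1 with normexp, 1 with the replicate block, 560 with array weights (216 higher, 344 lower), 6269 in the value table, 12078 without the 3 files against the Perp label and 32 without the 3 against the male label, and stayed at 0 with any 1 file left out. In the table, from 6269, it went to 1 with the replicate block, 1 with the slide as a block over 5 columns, 1500 on probes above background on all 6 files, 1 on the brighter features, 0 without the 3 columns against the male label, and 1 to 5899 with 1 column left out (1 without PN2, 787 without PN3, 2662 without WT3, 3188 without WT1). The lower pathway genes in the files, 141 of 176, were 43 with array weights, 46 without the 3 arrays against the male label and 121 to 150 with 1 file left out. They were 125 without the 3 files against the Perp label, 122 with quantile normalization, 125 with normexp and 157 with median scaling. In the table, with 124, the count was 99 with the slide as a block and 100 to 135 with 1 column left out, where the median over the 9 was -0.12 to -0.04. The causes were not tested. The alternatives on the value table were chosen after seeing the data. Where 1 sample is left in an arm, it is assumed to vary like the others. Calls in the table lay mostly among dim features, and the reason was not tested.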
